A study of Ovis aries with 6 samples.

Results

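Unmethylated regions (UMRs) are stretches of DNA in which most CpG sites carry no methyl group, and the 466 described here were listed as shorter in lamb than in fetal perirenal fat. They were taken from the authors' 2 deposited UMR lists, 1 per stage, as positions on the sheep build Oar_v3.1. A fetal UMR on autosomes 1 to 26 was kept when it overlapped exactly 1 lamb UMR by at least 1 base, when that lamb UMR overlapped no other fetal UMR, and when the fetal length was over 1.5 times the lamb length. Of 21446 autosomal fetal UMRs, 19512 met the overlap conditions and formed pairs, and 466 of the pairs, or 2.39%, passed the length rule. Of the other pairs, 18667 had lengths within 1.5 times of each other in either direction and are called stable below, and 379 were wider in lambs by the same ratio.

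The tissue is perirenal adipose tissue, which surrounds the kidney, from wild-type pure-bred Merino sheep given no treatment. The 3 lambs were 89 ± 7 days old after birth per the sample protocols (80 days in the series text) and the labels call their depot white fat. Tissue of the 3 fetuses, brown fat by its label, was collected 132 ± 1 days post conception in a gestation of 150 days. Lambs and fetuses came from different ewes, so each sample is a separate animal, and the question of the comparison is where methylation differs between the stages of a depot that turns from brown to white. The sample descriptions end in VEH for each lamb and in TV for each fetus, so stage and whatever these tags stand for cannot be told apart. The samples are whole tissue, so a change in the mix of cell types and a change within cells cannot be told apart either.

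DNA methylation is placed on CpG sites by the DNA methyltransferases and can be removed with the help of the TET enzymes. UMRs include most CpG-rich promoters, where low methylation goes with open chromatin, and their edges, called shores, are where methylation climbs to the high level of the surrounding genome and where tissues often differ. Brown fat warms the newborn by burning fuel, whereas white fat stores it. Bisulfite turns unmethylated cytosine into a base that is sequenced as T, and the methylation level of a CpG is the percentage of its reads that kept C. All levels below are percentages of covering reads, summed over CpGs covered by 3 or more reads in all 6 animals, which are called usable. No gene annotation or genome sequence of Oar_v3.1 was used here, so regions are named by position alone.

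Reads covering CpG positions totalled 136938075 to 209550245 per animal, with a mean of 5.22 to 8.00 reads per autosomal CpG, and 15163759 of 24936679 autosomal CpG positions were usable. Over all autosomal CpGs the lambs stood at 69.9%, 72.1% and 71.1% and the fetuses at 70.4%, 70.3% and 70.2%. The list of each stage was deposited once, with no list per animal, so the lengths carry no replicate error.

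The lengths chose these UMRs, so a long fetal and a short lamb entry are a description of the choice. Their median length was 1260 bases in lambs and 2424.5 bases in fetuses, with quartiles of 891.25 and 1993.25 bases in lambs and 1684.75 and 3624 bases in fetuses. Stable pairs had median lengths of 1875 bases in lambs and 1874 bases in fetuses, and pairs wider in lambs had 2672 bases in lambs and 1441 bases in fetuses, so each selected set was long in the stage it was chosen for. The length ratio of the narrower UMRs had a median of 1.75, quartiles of 1.61 and 2.07, and a highest value of 9.05, and 128 of the 466 were over 2. The part of each region listed for fetal tissue alone, called the fetal-only part, had a median of 1161 bases and summed to 710 kb, or 47.3% of the fetal length of these UMRs. The shared core, listed in both stages, summed to 791 kb. In stable pairs the fetal-only part came to 4.15% of the fetal length.

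**Figure D1:**
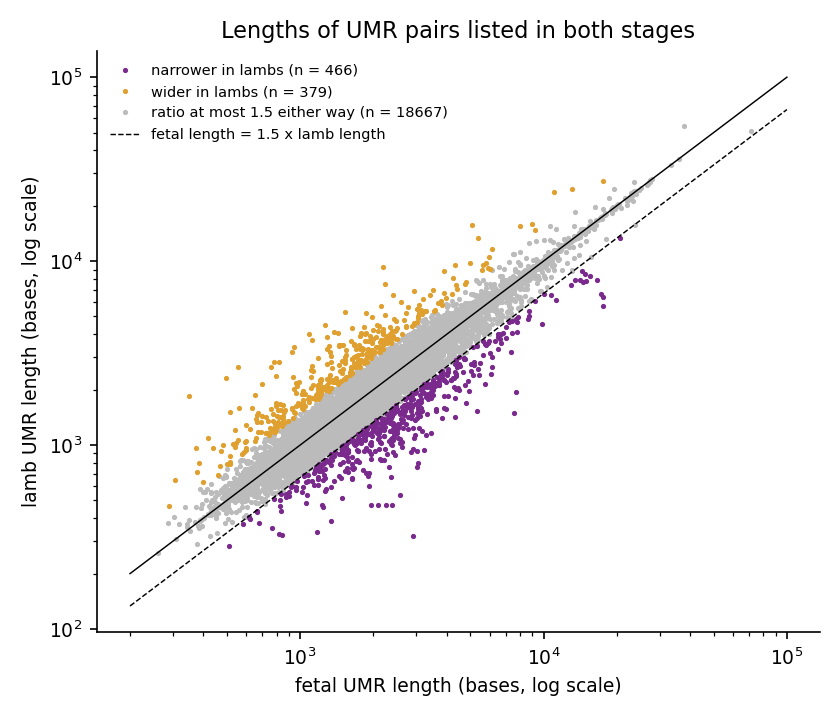
Length of each of the 19512 pairs in the lamb list (vertical axis) against the fetal list (horizontal axis), both in bases on a log scale. The 466 narrower UMRs lie below the dashed line of a 1.5 ratio at all lengths from 509 to 20663 fetal bases.

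Most of the narrower UMRs were cut back at one end only. With an end called kept when both lists placed it within 100 bases, 318 of the 466 had 1 end moved inward in lambs and the other kept. Both ends were moved inward in 119, and in 29 an end moved inward while the other moved outward. The moved end of the 318 was at the lower coordinate in 156 and at the higher in 162, in near equal numbers. In 387 the lamb UMR lay wholly inside the fetal one. Of the 466, 1 overlapped a DNA methylation valley (DMV, a long unmethylated stretch) of either stage, or 0.215%, beside 460 of the stable pairs, or 2.46%, and 2 of the 379 wider pairs, or 0.528%. They were found on every autosome, from 1.43% of the pairs on chromosome 7 to 4.26% of those on chromosome 26. Within 5 Mb of the high-coordinate end of a chromosome lay 80 of them, or 17.2%, beside 11.6% of stable and 13.2% of wider pairs. Within 5 Mb of the low-coordinate end lay 47, or 10.1%, beside 6.26% of stable and 8.71% of wider pairs. The wider pairs thus also lay above the stable share at both ends, and none of these shares was tested.

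The fetal-only parts were CpG-poor shoulders of intermediate methylation rather than unmethylated sequence. They held 1.26 CpG positions per 100 bases, against 3.4 in the cores of the same UMRs, and in 432 of the 466 the density was lower in the fetal-only part than in the core. The cores of stable pairs held 3.91. Low density was shared by the other edges listed for a single stage, with 1.67 in the fetal-only parts of stable pairs and 1.19 in the lamb-only parts of wider pairs. The level in the fetal-only parts was 46.4%, 47.5% and 45.4% in lambs 1 to 3, and 36.8%, 38.7% and 37.2% in fetuses 1 to 3. The means were 46.4% ± 1.07 in lambs and 37.6% ± 1.02 in fetuses (SD, n = 3 each). They differed by 8.83 percentage points over 5210 usable CpGs, and each lamb stood above each fetus. The lists were made from methylation in these animals, so a higher lamb level here is what the length rule picked, and it is given as a description with no test.

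Single CpGs in the fetal-only parts were mostly partly methylated in both stages. With the reads of a stage added together, 81.8% of these CpGs were between 20% and 80% in lambs and 77.9% in fetuses. CpGs under 20% made up 12.4% in lambs and 19.2% in fetuses, and CpGs over 80% made up 5.78% and 2.96%. Fetal-only parts of stable pairs were alike, with 87.4% of CpGs between 20% and 80% in lambs and 85.0% in fetuses. In the fetal-only parts of narrower UMRs the median CpG was at 48.0% in lambs and 36.8% in fetuses. In the cores of narrower UMRs 72.5% of CpGs were under 20% in lambs and 76.3% in fetuses. Most CpGs of the shoulders were therefore neither unmethylated in fetuses nor fully methylated in lambs.

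A fetal-only part had at least 3 usable CpGs in 388 of the 466 UMRs, while 33 had none. Across the 388, the lamb minus fetal difference had a median of 8.97 points and quartiles of 4.46 and 13.1, and it ran from -13.9 to 38.3. Lambs had the higher mean in 346 of the 388, or 89.2%, beside 92.9% over all pairs with such a part, and the count was 340 to 354 when any 1 animal was left out. The difference was 10 points or more in 172, or 44.3%, beside 55.7% over all such pairs, and in 1 it was -10 points or below. Animals of the same stage differed by a median SD of 6.73 points, over a median of 82.75 reads per animal, so in a single region the typical difference was not far above the spread between animals. All 3 lambs stood above all 3 fetuses in 121 of the 388. Over all pairs with such a part the share was 29.7% (783 of 2639), and the 31.2% of the narrower UMRs is near it. All lambs stood below all fetuses in 1, or 0.258%, beside 0.114% over all pairs.

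The stage difference in the shoulders of narrower UMRs was smaller than in the mostly shorter fetal-only edges of stable pairs. In stable pairs the fetal-only parts were at 52.2% ± 0.793 in lambs and 40.5% ± 0.572 in fetuses (SD, n = 3 each), a difference of 11.7 points, with a median of 11.8 over 2227 parts. The mirror image was seen in pairs wider in lambs, whose lamb-only parts were at 37.0% ± 0.505 in lambs and 43.1% ± 0.456 in fetuses, a difference of -6.08 points. Each of these parts was listed because its stage was low there, so none of the 3 differences is tested.

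**Figure D2:**
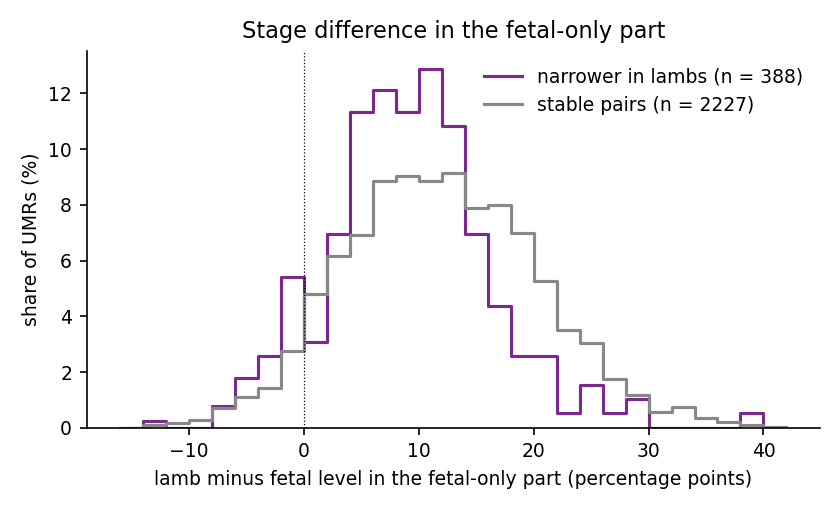
Share of UMRs (vertical axis, %) by the lamb minus fetal level in the fetal-only part (horizontal axis, percentage points, steps of 2), for the 388 narrower UMRs and the 2227 stable pairs with at least 3 usable CpGs there. The narrower UMRs centre near 9 points and the stable pairs near 12.

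Most fetal-only parts lay on the same side of 50% methylation in both stages. Of the 388, the mean was over 50% in lambs and at or under 50% in fetuses in 134. It was at or under 50% in both stages in 213 and over 50% in both in 38. The lamb means had a median of 49.1% with quartiles of 42.3% and 54.4%, and the fetal means a median of 39.3% with quartiles of 34.4% and 44.3%.

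In the fetal-only stretches with at least 8 usable CpGs, methylation was highest beside the core and lower farther out. In the 270 stretches with at least 8 usable CpGs, the CpGs were taken in order from the core outward and divided into 4 equal steps. In lambs the level was 54.7% ± 0.672 in the first step, 45.2% ± 1.43 in the next, 38.7% ± 1.53 in the third and 40.4% ± 1.33 in the last. In fetuses it was 44.1% ± 0.967, 36.5% ± 2.00, 31.8% ± 0.953 and 32.7% ± 1.17 (SD, n = 3 each). In both stages the level was highest in the first step and lowest in the third, and the lambs stood higher at each step, by 10.6, 8.65, 6.88 and 7.71 points. The lamb list ends at the inner edge of the first step, so a high lamb level in the first step belongs to how the parts were drawn, while the fetal list runs through it. The fetal list ends at the outer edge of the last step, so low fetal levels there belong to it as well. By distance over all 585 moved ends, where bins can lie in cores, levels rose toward the fetal end. From 300 to 400 bases inside it to the last 100 bases, fetuses went from 26.1% to 39.1% and lambs from 32.5% to 48.5%.

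Many fetal-only parts overlapped a low-methylated region (LMR) of the lamb list. LMRs are short, partly methylated and CpG-poor, and many lie at enhancers. A lamb LMR overlapped the fetal-only part in 194 of the 466, or 41.6%, and covered 23.0% of all fetal-only bases. In stable pairs 303 of 8601 fetal-only parts, most of them far shorter, overlapped one, or 3.52%. Lamb LMRs covered 6.81% of the fetal-only bases of stable pairs. In pairs wider in lambs, 160 of 379 lamb-only parts overlapped a fetal LMR, or 42.2%. In the 194 the fetal-only level was 43.3% ± 0.895 in lambs and 35.7% ± 1.15 in fetuses, and in the other 272 it was 53.1% ± 1.48 and 41.8% ± 0.815 (SD, n = 3 each). In 188 of the 270 stretches, those of UMRs with a lamb LMR, the 4 steps outward were at 53.7%, 42.7%, 35.5% and 38.3% in lambs and at 43.3%, 35.1%, 29.996% and 31.6% in fetuses. In the other 82 the level was lower at each step, with no dip, at 58.4%, 55.4%, 51.6% and 49.0% in lambs and at 47.2%, 42.6%, 39.1% and 36.9% in fetuses.

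Just inside the fetal end, the moved ends were already partly methylated in both stages, while the kept ends of the same UMRs were low until close to the end. Between 300 and 400 bases inside the fetal end, the 585 moved ends were at 32.5% in lambs and 26.1% in fetuses, and the 318 kept ends of the UMRs with a single moved end were at 11.8% and 10.7%. In the last 100 bases inside the fetal end the moved ends were at 48.5% in lambs and 39.1% in fetuses, and the kept ends at 35.7% and 31.9%. In the first 100 bases outside the fetal end the stages were close at both, at 64.5% and 62.8% for moved ends and 62.7% and 62.3% for kept ends, in lambs and fetuses in that order. The stage difference at moved ends was 9.31 points in the last bin inside and 1.62 points in the first bin outside, and the choice of those ends requires a difference inside. At kept ends the same bins differed by 3.83 points inside and 0.346 points outside. Between 300 and 400 bases inside, the stage difference was 6.40 points at moved ends and 1.15 points at kept ends. These bins take in lamb ends at many distances. Counted from the lamb end, the same 585 ends had a step: the last 100 bases inside were at 33.5% in lambs and 28.6% in fetuses, and the first 100 bases outside at 56.0% in lambs and 44.2% in fetuses. Between 500 and 600 bases outside the lamb end the levels were 57.6% in lambs and 52.7% in fetuses, so up to there the lambs were nearly level while the fetuses climbed. Between 1500 and 1600 bases they were 69.8% and 68.1%, so farther out both stages climbed. The outer bins run past the fetal end in many regions.

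**Figure D3:**
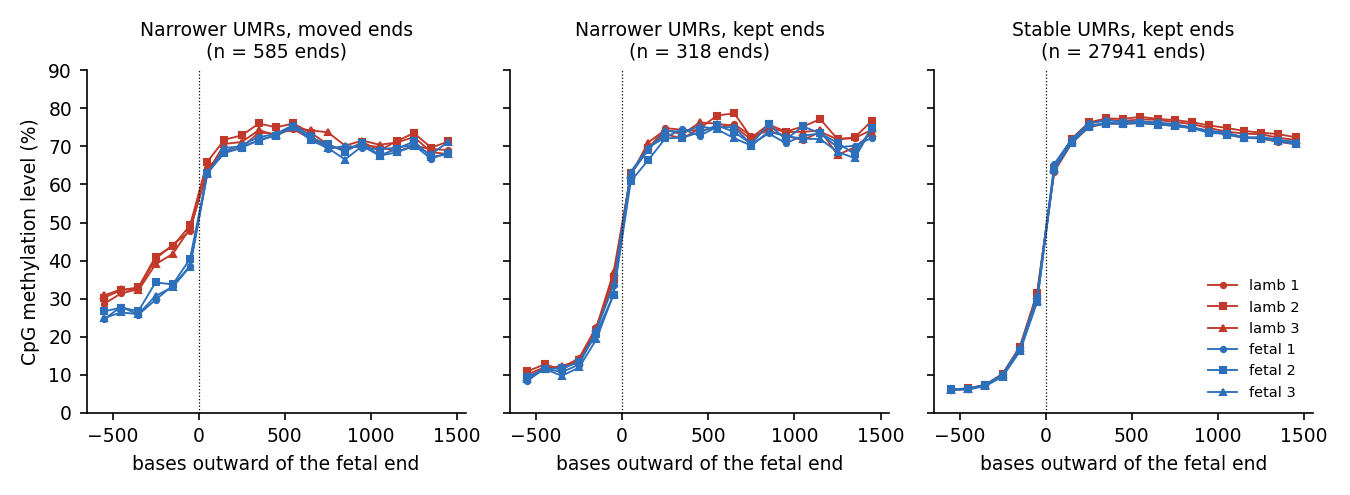
Methylation level of each animal (vertical axis, %) in bins of 100 bases by distance from the fetal end (horizontal axis, bases, positive outward), for the moved and kept ends of narrower UMRs and the kept ends of stable pairs. Lambs run above fetuses inside the 585 moved ends, and the curves of the 6 animals come close outside. At kept ends the level rises steeply outward in every animal.

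The shared core, which both lists hold, was slightly more methylated in each lamb than in each fetus. Its edge at a moved end is the lamb list's own end, so its level is not free of the choice of these UMRs. In the last 100 bases inside the lamb end, lambs stood above fetuses by 4.87 points at moved ends and 1.11 at kept ends. Farther in, neither kind of end stood higher throughout. The differences at moved and kept ends were 1.91 and 2.03 points between 100 and 200 bases inside, and 1.78 and 0.964 points between 300 and 400. The whole core stood at 13.1%, 13.4% and 13.2% in lambs 1 to 3, and 12.1%, 12.3% and 11.8% in fetuses 1 to 3, over 15958 usable CpGs. The means were 13.2% ± 0.161 in lambs and 12.1% ± 0.245 in fetuses (SD, n = 3 each), a difference of 1.12 points. By a two-sided exact permutation test p was 0.1, and with 3 animals a stage no smaller p can be had, so 0.05 is out of reach. The cores of stable pairs were lower, at 7.77% ± 0.144 in lambs and 7.55% ± 0.150 in fetuses, with overlap between the stages (exact permutation p = 0.3). Within each animal the cores of narrower UMRs stood above those of stable pairs by 5.37, 5.45 and 5.51 points in lambs and by 4.38, 4.87 and 4.37 points in fetuses. This gap differed between the stages by 0.902 points, without overlap between the animals (exact permutation p = 0.1). Narrower and stable pairs were told apart by their lengths in the lists of these animals. Neither this p nor that of the cores alone is therefore free of the choice. In pairs wider in lambs the cores were at 10.0% ± 0.244 in lambs and 10.5% ± 0.442 in fetuses, a difference of -0.544 points (exact permutation p = 0.3). Without the outer 250 bases at each end, cores of narrower UMRs were at 8.63% ± 0.262 in lambs and 7.83% ± 0.173 in fetuses (SD, n = 3 each; exact permutation p = 0.1). Stable cores trimmed in the same way were at 5.20% ± 0.121 in lambs and 5.02% ± 0.0794 in fetuses (SD, n = 3 each; exact permutation p = 0.1), so there too each lamb stood above each fetus, by 0.178 points on average beside 0.806 points in narrower UMRs.

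No single core could be called. A quasi-binomial test of methylated against unmethylated reads, with limma's moderation of the dispersion, was fitted on the cores of all pairs and adjusted over 19403 of them by Benjamini-Hochberg. A call needed 10 points or more and an adjusted p below 0.05, and 0% of all cores met this, and 0 of the 456 tested cores of narrower UMRs. The smallest adjusted p among the 456 was 0.175. An unadjusted p under 0.05 was found for 47 of them, with lambs higher in 42, which is 10.3% beside the 7.77% over all cores. limma on log2 ratios also called 0, and gave 38 unadjusted. Across the 456 cores the lamb minus fetal difference had a median of 1.15 points beside 0.211 over all cores, and lambs were higher in 313, or 68.6%, beside 55.4%. The 456 cores were also noisier and less covered. Their median SD between animals was 3.29 points beside 1.80 over all cores, and their median reads per animal 214.8 beside 327.5. All lambs stood above all fetuses in 45 cores, or 9.87%, where the share over all cores was 7.71%, and all lambs stood below in 15, or 3.29%, beside 4.8%.

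Farther out the stages overlapped, and the stage difference was 0.833 points, beside 0.400 points in stable pairs. From 1 to 3 kb outside the fetal ends, without bases of any listed UMR, LMR or DMV, the level was 78.8%, 80.8% and 80.0% in lambs and 79.0% in each fetus. The means were 79.9% ± 0.973 in lambs and 79.0% ± 0.0119 in fetuses (SD, n = 3 each; exact permutation p = 0.4), a difference of 0.833 points that was 0.390 without lamb 2, the highest animal. The same flanks of stable pairs were at 80.3% ± 0.776 in lambs and 79.9% ± 0.0835 in fetuses. The flanks of narrower UMRs lay below these by 0.607, 0.220 and 0.350 points in lambs and by 0.913, 0.753 and 0.809 points in fetuses. The gap differed between stages by 0.433 points, without overlap (exact permutation p = 0.1). Across 456 flanks of narrower UMRs the lamb minus fetal difference had a median of 1.03 points, beside 0.356 over all pairs. Lambs were higher in 291 of these flanks, or 63.8%, beside 55.0% over all pairs, so a tilt like that of the cores was seen here too. All lambs stood above all fetuses in 40 of 456 flanks, or 8.77%, beside 6.55% over all pairs, and below them in 14, or 3.07%, beside 4.53%.

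**Figure D4:**
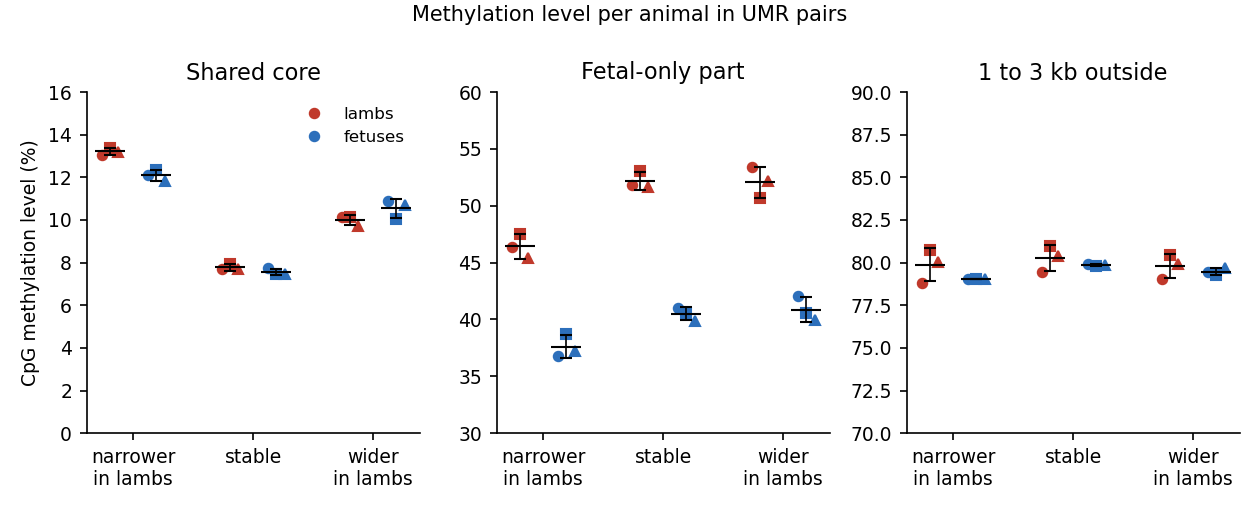
Methylation level per animal (vertical axes, %, with a different range in each panel) in the shared core, the fetal-only part and the flank 1 to 3 kb outside, for narrower, stable and wider pairs; points are animals (circle, square and triangle for animals 1, 2 and 3), bars the mean and SD. In narrower UMRs the 3 lambs lie above the 3 fetuses in the core and the fetal-only part, and the stages overlap in the flank.

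Depth was slightly lower in shoulders than in cores in each animal. In the fetal-only parts the mean was 7.48, 4.78 and 5.14 reads per CpG in lambs 1 to 3, and 6.99, 5.19 and 6.65 in fetuses 1 to 3. In the cores it was 8.06, 4.92 and 5.37 in lambs and 7.52, 5.83 and 7.06 in fetuses. Usable CpGs made up 58.2% of those in fetal-only parts and 59.3% of those in cores. The part of depth in where each list ends was not tested.

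Among narrower UMRs with at least 5 usable CpGs in the fetal-only part and no overlap between the stages there, the largest difference was on chromosome 12, in the fetal UMR from 1610837 to 1611500. Its lamb UMR ran from 1610887 to 1611318. The fetal-only part was at 64.2%, 61.1% and 57.1% in lambs and at 30.5%, 14.3% and 22.7% in fetuses, a difference of 38.3 points over 7 CpGs. This region is short, and its core had a higher lamb mean as well, at 33.7% ± 5.38 in lambs and 13.96% ± 7.80 in fetuses (SD, n = 3 each). The core's limma-moderated adjusted p over all cores was 0.340.

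On chromosome 19 the fetal UMR from 50138774 to 50141681 gave up 1136 bases at its low-coordinate end. There the lambs were at 55.6%, 70.6% and 55.4% and the fetuses at 28.6%, 33.3% and 29.9%. Its core of 1772 bases was low in both stages, at 4.56% ± 0.619 in lambs and 4.95% ± 2.42 in fetuses (SD, n = 3 each). Of the moved bases 814 lie in a DMR of the authors' hyper list and 328 in a lamb LMR.

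On chromosome 4 the fetal UMR from 24170354 to 24181094, of 10741 bases, was cut back at both ends, by 2062 and 2100 bases. Its fetal-only part was at 66.7%, 69.4% and 67.2% in lambs and at 35.7%, 47.5% and 40.7% in fetuses. Its core, with the most usable CpGs among the 10 regions of largest difference, was at 8.48% ± 0.370 in lambs and 5.04% ± 0.199 in fetuses (SD, n = 3 each). The difference of 3.43 points had a limma-moderated adjusted p of 0.317 over all cores.

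On chromosome 26 the fetal UMR from 24953151 to 24956102 had a nearly unmethylated core, at 3.57% ± 0.758 in lambs and 2.19% ± 0.286 in fetuses. Its fetal-only part was at 73.7%, 66.7% and 62.1% in lambs and at 43.8%, 31.8% and 46.7% in fetuses. On chromosome 12 the fetal UMR from 22303142 to 22305286 was alike, with a core at 5.48% ± 1.96 in lambs and 5.17% ± 1.07 in fetuses, and a fetal-only part at 66.9% ± 4.13 in lambs and 42.7% ± 10.6 in fetuses (SD, n = 3 each).

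In others of the 10 largest the core was partly methylated itself. On chromosome 22, in the fetal UMR from 38371874 to 38373442, the core was at 24.5% ± 8.94 in lambs and 29.5% ± 6.40 in fetuses, and the fetal-only part at 74.5% ± 6.46 and 50.2% ± 5.63. On chromosome 20, from 47019244 to 47020322, the core was at 22.5% ± 4.44 in lambs and 24.5% ± 4.49 in fetuses, and the fetal-only part at 59.9% ± 3.02 and 35.1% ± 5.48. On chromosome 15, from 42465047 to 42466525, the fetal-only part was at 65.2% ± 10.1 in lambs and 39.7% ± 12.7 in fetuses (SD, n = 3 each), and lamb 2 at 54.8% was barely above fetus 2 at 54.3%. On chromosome 14, from 52852129 to 52853776, lamb 3 stood apart at 38.7% from the other lambs at 70.7% and 70%, against 37.1%, 35.5% and 18.8% in fetuses. On chromosome 24, from 1327528 to 1329771, the lamb UMR of 475 bases was all that remained of 2244, and lamb 2 was at 68.4% while lambs 1 and 3 were at 43.3% and 40.4%, against 23.8%, 27.6% and 29.8% in fetuses. These 10 were picked for their difference in these animals, which ran from 23.7 to 38.3 points.

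**Figure D5:**
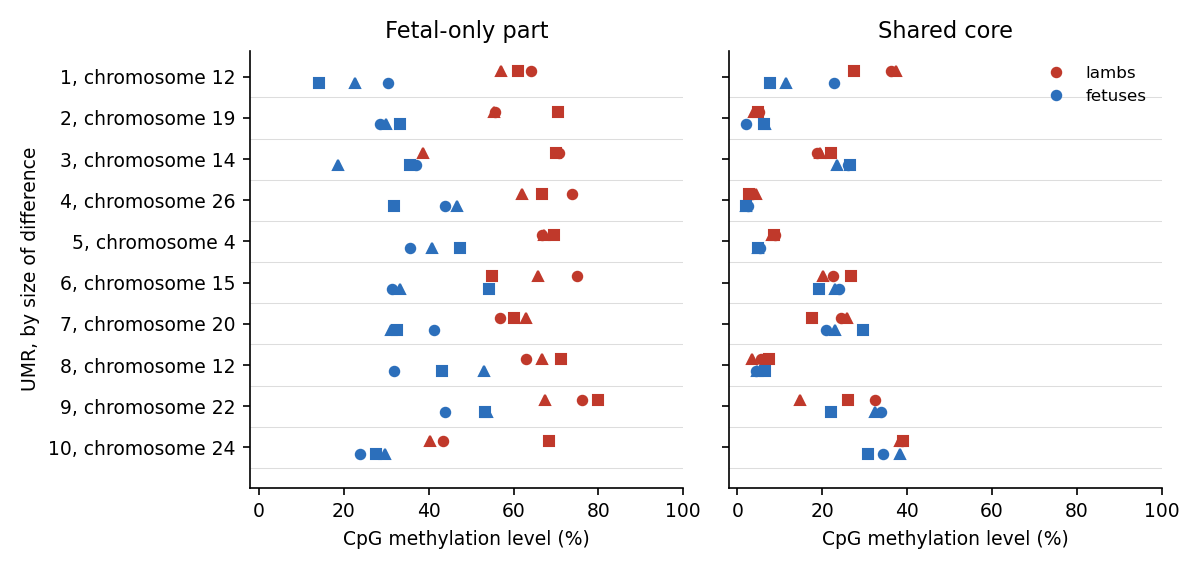
Methylation level of each animal (horizontal axes, %) in the fetal-only part and the shared core of the 10 narrower UMRs with the largest difference without overlap, one per row; circle, square and triangle stand for animals 1, 2 and 3. Lambs stand right of fetuses in each fetal-only part, by rule, while in the cores the stages overlap in 5 of the 10 rows.

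The 5 narrower UMRs that lost most bases were broad and poor in CpGs, and even their cores were partly methylated, at means of 26.3% to 42.6% in lambs and 24.2% to 36.3% in fetuses. On chromosome 1, from 102088505 to 102106080, the lamb list kept 5721 of 17576 bases. The core was at 27.3% ± 7.24 in lambs and 28.9% ± 2.88 in fetuses, and the fetal-only part, with 6 usable CpGs in 11855 bases, at 53.1% ± 7.59 and 57.7% ± 3.24 (SD, n = 3 each). On chromosome 3, from 106782226 to 106798772, the fetal-only part of 10962 bases was at 38.4% ± 3.01 in lambs and 40.5% ± 6.94 in fetuses, and the lamb UMR reached 2324 bases past the fetal one at the other end. On chromosome 11, from 327775 to 344992, it was at 50.7%, 52.2% and 50.3% in lambs and at 44.1%, 45.5% and 35.6% in fetuses, the only one of the 5 in which every lamb stood above every fetus. On chromosome 20, from 1271580 to 1287168, the fetal-only part was at 52.1% ± 14.6 in lambs and 48.1% ± 3.48 in fetuses. On chromosome 15, from 207726 to 222625, it was at 32.8% ± 3.74 and 27.6% ± 2.44, with 4294 of its 7103 bases in a lamb LMR. The stages overlapped in 4 of the 5.

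In a minority of the narrower UMRs the fetal-only part was not higher in lambs. The lowest difference, -13.9 points, was on chromosome 10 from 33597808 to 33600222, at 57.6%, 40.6% and 57.1% in lambs and 68.2%, 63.8% and 65.1% in fetuses over 6 CpGs. On chromosome 6, from 114796826 to 114799736, the fetal-only part was at 33.0% ± 8.74 in lambs and 39.4% ± 11.3 in fetuses, while its core was at 30.7% ± 2.6 in lambs and 20.1% ± 1.59 in fetuses (SD, n = 3 each; limma-moderated adjusted p = 0.345 over all cores). On chromosome 18, from 33180886 to 33184178, the fetal-only part was at 39.4% ± 10.8 in lambs and 45.7% ± 6.93 in fetuses. In this region 8 usable CpGs stood for 2153 bases.

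The authors' differentially methylated regions (DMRs), deposited as lists named hyper and hypo whose direction the labels do not give, touched few of the fetal-only parts. A DMR of the hyper list overlapped 13 of the 466, or 2.79%, covering 0.490% of the fetal-only bases, and a DMR of the hypo list overlapped 1. In stable pairs the hyper list touched 112 of 8601 fetal-only parts, or 1.30%, covering 0.835% of their bases, and the hypo list touched 0. One of the 13 had no usable CpG there and another had 2. In the 12 with any, the level was 51.7%, 54.9% and 42.2% in lambs and 29.9%, 34.4% and 29.3% in fetuses. In the UMRs without such a DMR it was 46.3% ± 0.876 in lambs and 37.8% ± 0.984 in fetuses (SD, n = 3 each). Of the 13, the fetal UMR on chromosome 15 from 77677507 to 77680360 was the best covered of those named, with 45 usable CpGs and 295 reads per animal in its fetal-only part, at 59.6%, 63.3% and 49.2% in lambs and 33.8%, 40.2% and 30.4% in fetuses. Another of the 13, on chromosome 6 from 69611226 to 69614684, had more reads but was not picked by the naming rule. With 342 reads per animal over 44 usable CpGs, its fetal-only part differed by 15.4 points, beside 22.6 points on chromosome 15. The lists, the DMRs and the levels come from the same 6 animals, so these overlaps are not independent of one another.

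The nearest regions on either side of the length rule are given without a test. Just inside 1.5, the fetal UMR on chromosome 3 from 211489510 to 211491986 had a fetal-only part at 42.8% ± 3.06 in lambs and 35.3% ± 7.76 in fetuses, that on chromosome 20 from 7833434 to 7834771 one at 41.9% ± 8.49 and 42.0% ± 6.44, and that on chromosome 21 from 42558282 to 42562789 one with no usable CpG. Just outside, the pairs on chromosome 11 from 5264535 to 5265848, chromosome 7 from 66668108 to 66672479 and chromosome 3 from 219932310 to 219933793 were at 53.4% ± 8.56, 58.2% ± 14.3 and 34.4% ± 1.79 in lambs, and at 41.4% ± 3.1, 50.6% ± 7.02 and 22.9% ± 6.93 in fetuses (SD, n = 3 each). Levels were set beside how far and at how many ends the UMRs differed. The fetal-only parts were at 43.9% ± 1.95 in lambs and 35.7% ± 1.27 in fetuses in the 128 UMRs with a ratio above 2, and at 47.9% ± 0.784 and 38.7% ± 0.908 in the other 338. They were at 47.8% ± 1.5 in lambs and 37.9% ± 0.710 in fetuses where both ends moved inward, and at 46.0% ± 0.958 and 37.5% ± 1.05 where 1 end did (SD, n = 3 each).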

How the data were processed

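DNA of 3 lambs and 3 fetuses was sequenced as whole-genome bisulfite libraries, 1 lane of paired 100-base reads each, per the labels' protocols. Reads were mapped to Oar_v3.1 per the series text. BWA, Picard, Oar_v3.1 and hg19 stand in the submitters' processing notes without their roles. Per CpG position, the authors deposited raw counts of methylated and of covering reads, in columns named by the sample descriptions. The methylation caller and the caller of the deposited region lists, which hold positions alone, were not given in the sources used here. List starts were read as counted from 0 and are printed counted from 1.

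The narrower UMRs, the sets compared and the tests were chosen with earlier results of these data known. The level of a set is, for each animal, its summed methylated reads divided by its summed covering reads, over CpGs that all 6 animals covered with 3 or more reads. That minimum is lower than the 5 reads used earlier, which left 2169 usable CpGs in fetal-only parts. Levels of cores and flanks were compared by exact permutation tests over animals, two-sided. Cores with at least 3 usable CpGs were tested with a quasi-binomial logistic model in R 4.3.3, with limma 3.58.1 moderating the dispersion (prior 1.96 with 9.29 degrees of freedom) and a floor of 1. The test was tried on simulated data first. Regions named are, among those with at least 5 usable CpGs in the fetal-only part and 3 in the core, the 10 with the largest difference without overlap, the 5 with most fetal-only bases, the 3 with the lowest difference and the 5 largest with a DMR, plus 3 pairs on each side of the length rule. Alternatives were minimums of 1, 5 or 10 reads, dropping CpGs of over 3 times the median summed coverage, equal weight per CpG, other length ratios and overlaps, regions without a DMV, at least 5 CpGs, a replicate block, limma on log2 ratios of methylated to unmethylated reads, each plus a pseudocount of 1, and leaving out each animal. Planned gene lists were not used, as no annotation of the build was used here. Python 3.11.15, numpy 2.4.6 and pandas 2.3.3 were used. Reads are not marked by molecule, and the SDs given are between animals, so they hold animal differences as well as counting error.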

Additional observations from a re-analysis of the deposited data

How the results depend on the processing

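Cores without their outer 250 bases and UMRs nested in the fetal one were added after seeing the data. A minimum of 10 reads left only 9 CpGs in fetal-only parts and 164 in cores, and the differences turned to -1.46 points in fetal-only parts, -1.38 in cores (exact permutation p = 0.3) and -0.559 for cores against those of stable pairs (exact permutation p = 0.3), with 0 UMRs without overlap of 1 tested. In the other settings, planned or added, these kept their sign, and without an animal they ran from 8.28 to 9.41, 0.997 to 1.24 and 0.817 to 1.07 points. Flank differences were 0.390 to 1.35 points, and 0.347 to 0.540 against stable pairs, without an animal, the lowest of each without lamb 2; the highest with any setting were 3.1 and 1.48, with 10 reads. The 121 UMRs without overlap numbered 67 of 285 with a minimum of 5 reads, which leaves fewer CpGs, 155 of 417 with 1 read, and 150 to 185 without an animal (185 without lamb 3), where fewer animals have to be apart. Called cores of narrower UMRs numbered 0 in each of 13 alternatives. The length rule gave 1252 UMRs above a ratio of 5 to 4 and 128 above 2, by construction, and 393 with 50% reciprocal overlap, 332 of them among the 466. Replicate numbers name separate animals, and deviations of same-numbered animals correlated by -0.0152, 0.0131 and -0.00151 over cores, which does not pair them; the replicate block also gave 0 calls. Low coverage limits single regions most: 78 of 466 fetal-only parts had fewer than 3 usable CpGs.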

Other observations

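Fetal UMRs that were split, rather than cut back, in lambs showed the same kind of intermediate stretch. The 169 autosomal fetal UMRs that overlapped 2 or more lamb UMRs held 180 gaps between them, with a median of 459.5 bases. The gaps were at 52.8%, 54.4% and 52.8% in lambs and at 39.8%, 41.2% and 41.3% in fetuses, a difference of 12.6 points over 1343 usable CpGs. In the opposite case, 106 lamb UMRs overlapped 2 or more fetal ones, and their 109 gaps were at 42.6%, 41.0% and 43.2% in lambs and at 56.5%, 52.5% and 55.0% in fetuses, a difference of -12.4 points. These gaps were outlined by the lists of both stages, so the differences are not independent of them and were not tested.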
